A study of Mus musculus with 24 samples.

Results

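Chromatin accessibility at 10 genes that brake the cell cycle or belong to the p53 pathway was compared between aged and young mouse small-intestinal epithelium. The genes were the CIP/KIP inhibitors Cdkn1a, Cdkn1b and Cdkn1c, the INK4/ARF inhibitors Cdkn2a, Cdkn2b, Cdkn2c and Cdkn2d, and Trp53, Mdm2 and Ccng1. The assay was ATAC-seq, in which a transposase tags accessible DNA with sequencing adapters, run on cells of C57BL/6JRj mice sorted as EpCam+ and CD45-, with 3 aged libraries and 3 young libraries (numbers 1, 2 and 4 at each age). Peaks were taken by name, as those the authors' annotation assigned to one of these genes within 50000 bp of its transcription start site (TSS), whatever their signal. This gave 50 of 150646 consensus peaks and 10 of 29293 annotated genes. The labels give age only as aged or young. The design text of the series puts aged mice at 20 to 22 months and young mice at 2 to 3 months in sentences about other assays, and there it describes ATAC-seq on organoids, whereas the sample labels say freshly isolated cells. Sex is not given in the sources used here. Neither do the labels state that each library came from its own mouse, so p-values measure the spread between these libraries, which may be partly technical.

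Cyclin-dependent kinases drive a cell into and through division, and inhibitors of these kinases hold them back. The CIP/KIP proteins bind cyclin-kinase complexes broadly, whereas the INK4 proteins block the kinases Cdk4 and Cdk6 that inactivate the retinoblastoma protein. The transcription factor p53 induces Cdkn1a after DNA damage, Mdm2 marks p53 for degradation, and the product of the Arf start of Cdkn2a restrains Mdm2. In the intestine some of these brakes act where crypt cells stop dividing, and p16Ink4a, the other product of Cdkn2a, is widely used as a marker of cellular senescence.

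The promoter sequences below are those of the genes at which the accessibility results turn: Cdkn1a, which has a pair of starts and the largest promoter difference between the ages, and the neighbouring Cdkn2a and Cdkn2b, which hold 3 starts in a single locus on chromosome 4. Each is the 250 bases before a RefSeq start of GRCm38.p6, read in the direction of transcription. Capitals mark a p53 decamer in the upstream Cdkn1a window, the GC box GGGCGG in the downstream Cdkn1a and Arf windows, and the E2F motif TTCCCGC in the Arf window. The windows are, in the order printed, chr17:29090729-29090978 and chr17:29093519-29093768 on the plus strand, then chr4:89282193-89282442, chr4:89294620-89294869 and chr4:89311033-89311282 on the minus strand.
Cdkn1a upstream start: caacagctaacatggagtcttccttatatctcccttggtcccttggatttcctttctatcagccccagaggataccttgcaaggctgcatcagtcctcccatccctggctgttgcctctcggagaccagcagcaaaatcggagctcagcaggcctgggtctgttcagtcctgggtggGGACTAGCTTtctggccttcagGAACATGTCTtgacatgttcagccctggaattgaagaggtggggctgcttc
Cdkn1a downstream start: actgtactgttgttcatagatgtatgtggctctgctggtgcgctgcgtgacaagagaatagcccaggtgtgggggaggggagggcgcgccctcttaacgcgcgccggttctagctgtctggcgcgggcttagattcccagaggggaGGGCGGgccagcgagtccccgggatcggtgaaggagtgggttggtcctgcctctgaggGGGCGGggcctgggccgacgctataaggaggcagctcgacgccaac
Cdkn2a Ink4a start: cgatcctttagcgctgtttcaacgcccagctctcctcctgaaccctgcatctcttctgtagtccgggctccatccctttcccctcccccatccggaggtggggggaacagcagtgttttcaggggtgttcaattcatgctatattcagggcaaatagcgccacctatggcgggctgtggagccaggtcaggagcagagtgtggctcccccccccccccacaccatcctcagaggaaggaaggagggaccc
Cdkn2a Arf start: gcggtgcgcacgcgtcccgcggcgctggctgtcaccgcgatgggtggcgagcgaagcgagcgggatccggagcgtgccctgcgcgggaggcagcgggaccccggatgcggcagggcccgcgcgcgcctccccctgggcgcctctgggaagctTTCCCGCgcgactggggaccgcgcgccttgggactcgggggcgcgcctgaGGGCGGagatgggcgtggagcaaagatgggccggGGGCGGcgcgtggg
Cdkn2b start: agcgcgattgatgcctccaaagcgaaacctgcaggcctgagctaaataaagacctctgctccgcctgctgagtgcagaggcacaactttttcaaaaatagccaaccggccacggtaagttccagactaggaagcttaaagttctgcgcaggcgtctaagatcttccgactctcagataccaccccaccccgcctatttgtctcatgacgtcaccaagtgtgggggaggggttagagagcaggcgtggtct

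RefSeq held 12 start windows for 9 of the 10 genes, and Cdkn1c was not matched. Among the 12, 6 held GGGCGG, 5 held CCAAT, 1 (Trp53) held TATAAA, 2 (the Arf start and the upstream Cdkn2c start) held the E2F motif TTCCCGC, its variant TTGGCGC or the further variant TTCGCGC, and 5 held a p53 decamer, the unit of which a full p53 site has a pair. Both strands were searched, and matches of different motifs overlapped in 1 of the 12 windows, that of Cdkn2d (a GC box and a p53 decamer). Over all 32851 RefSeq promoters of the same length the shares were 32.7% for GGGCGG, 33.8% for CCAAT, 12.4% for TATAAA, 6.69% for the E2F motifs and 7.13% for the p53 decamer. The upstream Cdkn1a window was the only one of the 12 with 2 p53 decamers. The Arf window stood at 78.4% G and C with 40 CpG, the Ink4a window at 60% with 7 CpG and the Cdkn2b window at 53.6% with 12 CpG, beside medians of 52.4% and 6 CpG over all promoters. These matches describe the letters only.

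Total counts in peaks were 16900796, 23935291 and 17453629 in aged libraries 1, 2 and 4 and 22819924, 20046684 and 6149680 in young libraries 1, 2 and 4, so young 4 was the shallowest. Levels are given as CPM, counts scaled to library sizes that TMM had adjusted, and between genes as CPM per kb of peak. Marker peaks followed the sort: 9 of 11 epithelial marker genes and 0 of 14 leukocyte marker genes, Ptprc (which encodes CD45) and Cd3e among them, had a peak within 1000 bp of their TSS. Of 15 stromal, endothelial and neuronal markers 5 had such a peak: Col1a1, Pdgfra, Kdr, Myh11 and Acta2. Their summed promoter levels were 51.6 to 55.3 CPM in aged libraries and 52.8 to 53.7 CPM in young libraries. The other markers on that list, among them Col1a2, Pecam1 and Sox10, had none. The summed promoter levels of proliferating crypt markers were 642 to 690 CPM in aged libraries and 640 to 692 CPM in young libraries, and those of enterocyte markers 378 to 425 CPM in aged libraries and 382 to 398 CPM in young libraries. Those of secretory epithelium markers were 92.1 to 115 CPM in aged libraries and 103 to 115 CPM in young libraries. The ranges of each marker sum overlapped between the ages, and the edgeR test described below called 0 marker promoters. Its unadjusted p was below 0.05 at 2 of 8 tested proliferating crypt promoters and 2 of 8 secretory ones, beside 8.92% of all tested promoters. On the other marker lists 0 were below 0.05. In bulk samples a change in the share of a cell type and a change of accessibility within cells cannot be told apart.

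No peak of the 10 genes was called different between aged and young epithelium. With p-values adjusted by Benjamini-Hochberg over all 129588 tested peaks, the quasi-likelihood test of edgeR called 0 of the 41 tested peaks of these genes higher in aged epithelium and 0 lower, beside a background of 1.07% higher and 0.528% lower over all tested peaks. At an unadjusted p below 0.05 there were also 0 of 41, beside 8.82% of all tested peaks, and DESeq2 and limma-voom likewise called 0. A fit that blocked on library number called 2578 peaks higher and 1420 lower over all, and again 0 of these 41. The other 9 peaks did not pass the filter on low counts, with at most 21 counts in a library and 68 in all. In an edgeR fit of all 150646 peaks with no filter, 0 of these 9 were called (1.55% of all peaks were), and 0 had an unadjusted p below 0.05, beside 8.76% of all peaks. Fold changes (log2, aged over young) ran from -0.36 to 0.46 with a median of 0.018, against a median of -0.004 over all tested peaks. They lay above 0 at 22 peaks and below 0 at 19, and 49.3% of all tested peaks lay above 0. For 39 of the 41 peaks the 95% interval of the difference, from the fit without the block, stayed within a 2-fold change either way. Changes beyond that size thus lay outside the interval at most of them. All aged libraries exceeded all young ones at 2 tested peaks (background 7.32%) and lay below all of them at 2 (background 6.54%).

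**Figure D1:**
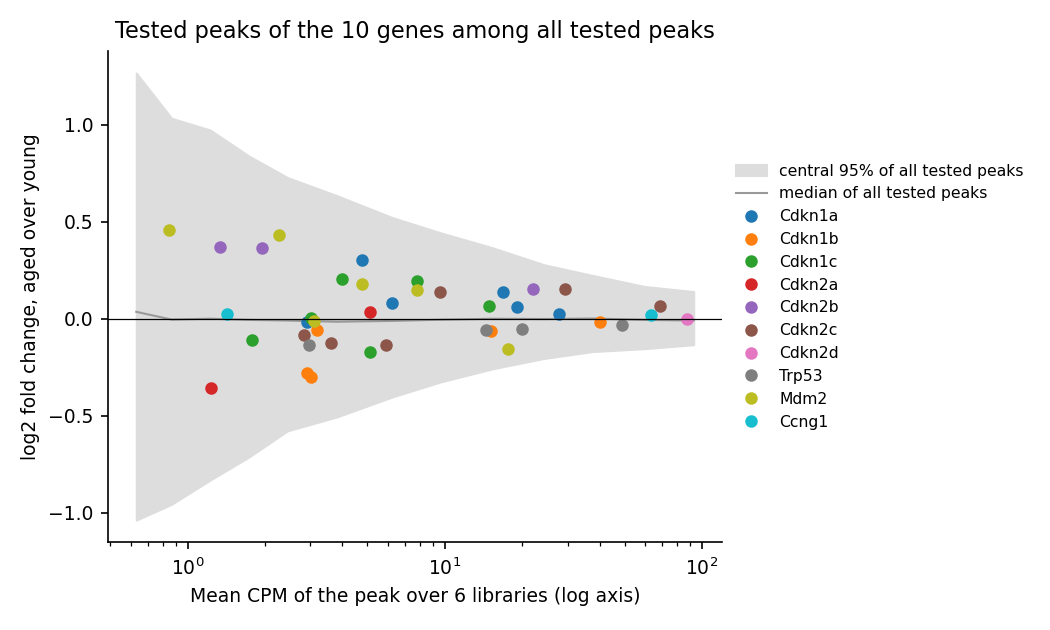
Log2 fold change (aged over young) of the 41 tested peaks of the 10 genes against their mean CPM over 6 libraries on a log axis; the grey band holds the central 95% of all 129588 tested peaks at each level and the grey line is their median. All coloured points, 1 colour per gene, lie inside the band, between -0.36 and 0.46.

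The peaks were of several kinds. By the authors' annotation 16 were at promoters, 14 in introns, 14 between genes, 5 in exons and 1 at a transcript end, and 15 lay within 1000 bp of the annotated TSS. Their widths ran from 78 to 1086 bp with a median of 208 bp, and the farthest lay 39777 bp from its TSS. Some also cover the start of a neighbour: the widest, assigned to Cdkn2c, covers the RefSeq start of Faf1, and both Trp53 peaks nearest its TSS cover starts of Wrap53, so their counts cannot be credited to one gene. The Arf start peak likewise covers a start of Gm12610, and a peak 5443 bp upstream of Cdkn1c covers one of Gm33663.

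The start sites spanned a wide range of accessibility. The Cdkn2d start was the most open, at 120 ± 6.79 CPM per kb in aged libraries and 120 ± 7.05 in young libraries (SD, n = 3 each), a level at the 98.5th percentile of the 12879 peaks that cover a RefSeq start. Ccng1 followed at 94 ± 7.11 CPM per kb in aged and 92.6 ± 5.23 in young libraries, and Cdkn1a came next at 65.4 ± 5.26 in aged and 63.3 ± 9.5 in young libraries. These 3 did not overlap one another over the 6 libraries. Below them the upstream Cdkn2c start (mean of 6 libraries 53.5 CPM per kb), Trp53 (52.7), Cdkn1b (45.9), Mdm2 (31.7), Cdkn2b (30) and Cdkn1c (29.5) formed a run in which each overlapped the next, as did Cdkn1a with Cdkn2c and Cdkn1c with the downstream Cdkn2c start (25.6). The Arf start of Cdkn2a was the lowest of those ranked, at 6.06 ± 1.26 CPM per kb in aged and 5.72 ± 0.668 in young libraries, near the 9.87th percentile of start peaks. Because a level per kb depends on how wide the peak was called, the order holds for these peak borders only. The Ink4a start of Cdkn2a, whose peak is assigned to another gene, is not in this ranking. Its means were lower still, at 1.58 CPM per kb in aged and 4.24 in young libraries. They rested on few counts, and in young 1 the Ink4a start lay above the Arf start (6.28 against 6.12 CPM per kb).

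**Figure D2:**
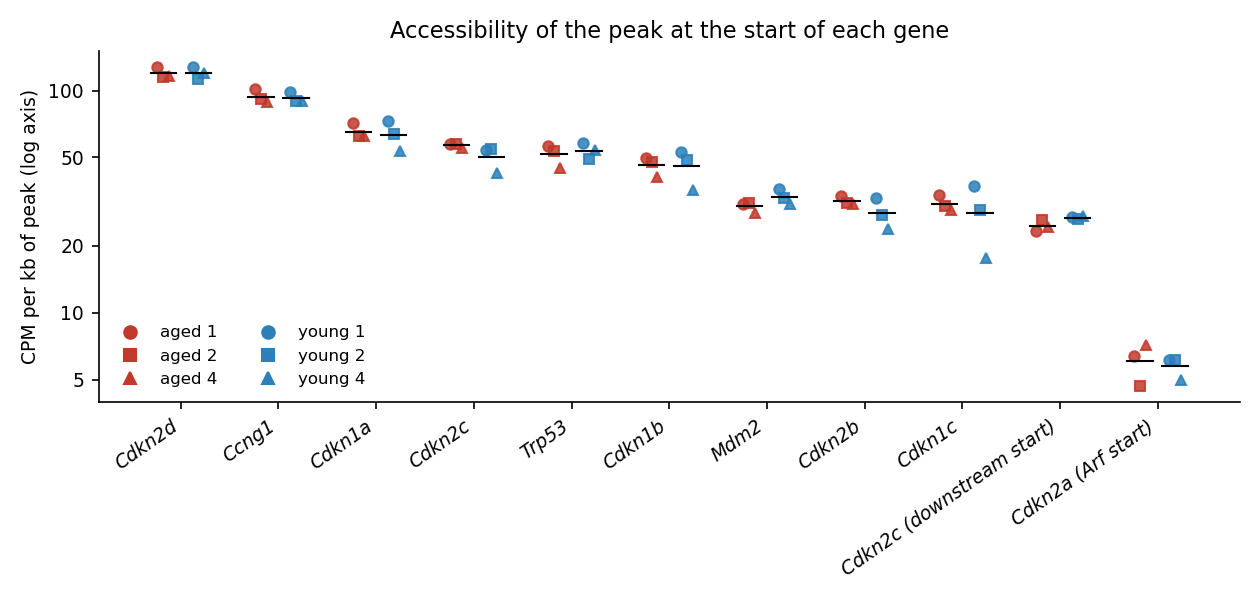
CPM per kb of the start peaks assigned to the 10 genes (log axis; the Ink4a start is not plotted) in aged libraries (red, left of each pair) and young libraries (blue, right), with circles, squares and triangles for libraries 1, 2 and 4 and black lines for the mean of 3. Levels run from 120 CPM per kb at Cdkn2d to about 6 at the Arf start of Cdkn2a, and aged and young means lie close together at every start plotted.

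Among the CIP/KIP genes, Cdkn1a (p21, the inhibitor that p53 induces) had 6 peaks, and the result at its promoter depended on which start was used. Within 1000 bp of the annotated TSS lay a single 101-bp peak, chr17:29097224-29097324, inside the gene. It measured 5.05, 4.72 and 5.74 CPM in aged libraries 1, 2 and 4, against 4.49, 3.37 and 5.1 CPM in young libraries 1, 2 and 4. The aged mean was the higher, but young 4 lay among the aged libraries. Counted as the promoter, the difference was 0.33 on the log2 scale (SE 0.20, 95% interval -0.09 to 0.75; edgeR quasi-likelihood test, Benjamini-Hochberg adjusted p = 0.739). The peak that covers the downstream RefSeq start, chr17:29093487-29093920, was wider and stronger, at 31, 27.1 and 27 CPM in aged libraries against 31.5, 27.6 and 23.2 CPM in young libraries. Here the ages overlapped throughout, and the counts over that start differed by 0.03 (SE 0.08, interval -0.13 to 0.20). The upstream RefSeq start, whose window carries the p53 decamers printed above, had no consensus peak over it, the nearest lying 2508 bp away. Over all 6 peaks Cdkn1a differed by 0.09 (SE 0.07, interval -0.07 to 0.24).

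Cdkn1b (p27, which holds resting cells out of division) had an 870-bp promoter peak at 43.4, 41.3 and 35.5 CPM in aged libraries and 46, 42.5 and 30.9 CPM in young libraries. The ages overlapped, with the lowest value in young 4, and the promoter difference was -0.02 (SE 0.08, interval -0.19 to 0.16). Its strongest distal peak, 5631 bp upstream, had 14.9, 14.2 and 15.3 CPM in aged and 14.7, 16.1 and 15.6 CPM in young libraries. A weaker peak 3122 bp upstream had the lowest p of its distal peaks, with 2.4, 3.34 and 2.44 CPM in aged and 3.8, 3.37 and 2.71 CPM in young libraries. Its difference of -0.30 (SE 0.22) did not pass edgeR's quasi-likelihood test (Benjamini-Hochberg adjusted p = 0.829).

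Cdkn1c (p57, an imprinted inhibitor expressed from the maternal allele) showed, of the 9 promoters, the widest spread between young libraries relative to its mean. The peak at its TSS had 16.9, 15.2 and 14.5 CPM in aged libraries and 18.8, 14.7 and 8.92 CPM in young libraries. Young 1 was the highest of all and young 4, the shallowest library, the lowest, so the aged values lay between them. The promoter difference was 0.07 (SE 0.13, interval -0.21 to 0.34), and it was -0.07 without young 4 and 0.24 without young 1. The strongest distal peak, 3045 bp upstream, had 5.24, 3.76 and 3.92 CPM in aged and 4.03, 3.47 and 3.5 CPM in young libraries, again overlapping.

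In the INK4/ARF family, Cdkn2a and Cdkn2b share a locus in which the Cdkn2b start was the most accessible and the Ink4a start, downstream of Arf, among the least. The Cdkn2b start, 16282 bases upstream of the Arf start by peak centre, averaged 31.9 CPM per kb in aged and 28.1 in young libraries. The Arf start peak averaged 6.06 CPM per kb in aged and 5.72 in young libraries. A 153-bp peak over the RefSeq start of Ink4a, which the authors' annotation assigns to Gm12606 and which therefore stands outside the 50 peaks, averaged 1.58 CPM per kb in aged and 4.24 in young libraries. It rested on 4, 6 and 4 counts in aged libraries 1, 2 and 4 and on 21, 7 and 4 counts in young libraries 1, 2 and 4, too few to pass the filter. Per kb, all 3 aged values (1.61, 1.64 and 1.48) lay below all 3 young values (6.28, 2.27 and 4.16). Of the peaks that passed the filter 6.54% had this order, and the share among low-count peaks like this one is not given here. With no filter the peak differed by -1.42 (SE 0.57, interval -2.56 to -0.27) and edgeR's quasi-likelihood test did not call it (p = 0.0165, Benjamini-Hochberg adjusted p = 0.352).

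**Figure D3:**
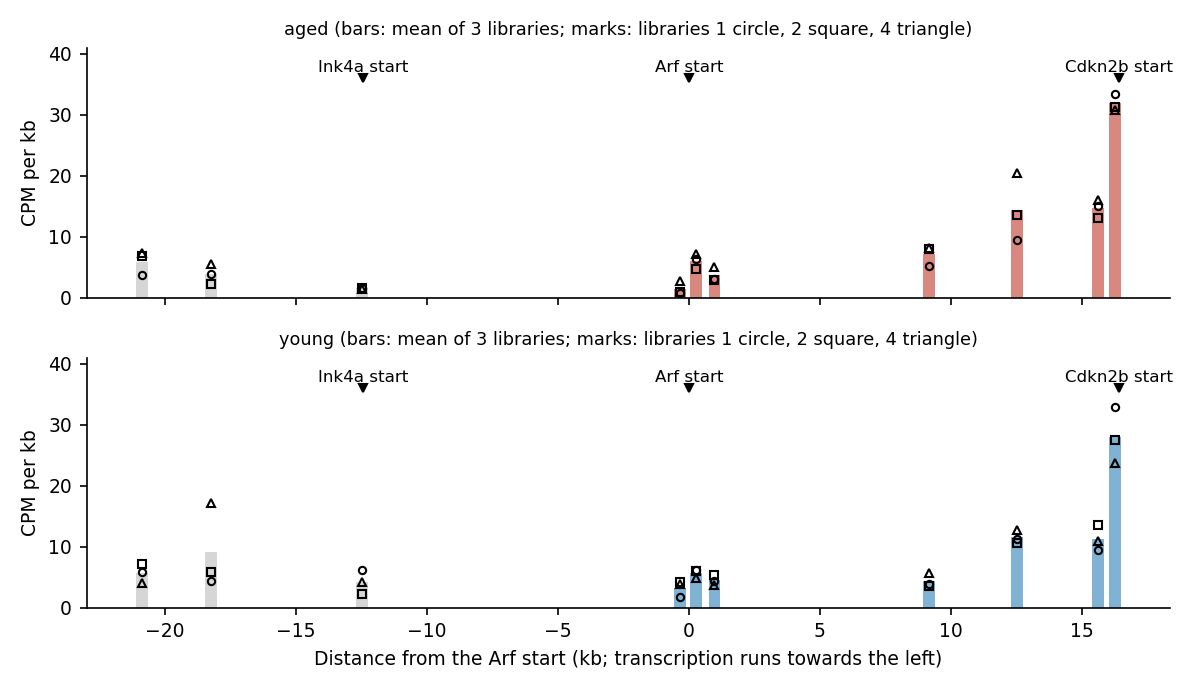
CPM per kb of peaks along the Cdkn2a and Cdkn2b locus by distance from the Arf start in kb, in aged libraries (top) and young libraries (bottom); bars are means of 3 libraries, open marks single libraries, grey bars peaks assigned to Gm12606 and triangles the RefSeq starts. The Cdkn2b start stands near 30 CPM per kb at both ages, while the Arf and Ink4a starts stay below 10 in every library.

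At the Arf start (p19Arf, the inhibitor of Mdm2) the 868-bp peak had 5.55, 4.05 and 6.19 CPM in aged libraries against 5.31, 5.3 and 4.3 CPM in young libraries. The highest and the lowest of the 6 values were both from aged libraries, and the counts over that start differed by 0.06 (SE 0.20, interval -0.34 to 0.47). The 3 peaks within 1000 bp of the annotated TSS together differed by -0.04 (SE 0.19, interval -0.42 to 0.34). This was the widest interval of any promoter of the 10 genes except that of Cdkn1a.

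Cdkn2b (p15, an inhibitor induced by TGF-beta) was among the 2 promoters whose sums were higher in every aged library than in every young one, an order that at Cdkn2b depended on the scaling. Its promoter, 2 peaks summed, had 74.1, 72.9 and 75 CPM of promoter counts in aged libraries and 68.5, 65.2 and 59.3 CPM in young libraries. The aged values lay close together and the young ones spread more widely below them. Scaled by the library sizes of the peak table instead, the same sums were 26.2, 24.4 and 24.3 CPM in aged and 25.2, 21.6 and 18.6 CPM in young libraries, and the ages overlapped. With each sum's own scaling the difference was 0.18 (SE 0.09, interval -0.01 to 0.37) and did not pass edgeR's quasi-likelihood test (p = 0.0566, Benjamini-Hochberg adjusted p = 0.591). With the block on library number, p was 0.0363 by edgeR. Of its single peaks, the one over the start overlapped between the ages at 24.7, 23 and 22.7 CPM in aged and 24.2, 20.3 and 17.5 CPM in young libraries. The distal peak 3883 bp into the gene had 1.42, 2.05 and 3.07 CPM in aged and 1.69, 1.58 and 1.91 CPM in young libraries. Over all 4 of its peaks Cdkn2b had the highest window difference of the 10 genes, 0.20 (SE 0.10, interval -0.02 to 0.42; edgeR adjusted p = 0.64).

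Cdkn2c (p18, an INK4 inhibitor of Cdk4 and Cdk6) was the other such promoter. It had 121, 123 and 123 CPM of promoter counts in aged libraries and 108, 118 and 96.3 CPM in young libraries. All aged values again lay above all young values, by a narrow margin over young 2, and they did so too with the library sizes of the peak table (42.6, 40.9 and 40 CPM in aged, 39.5, 39.3 and 30.3 CPM in young libraries). The difference of 0.16 (SE 0.08, interval 0.00 to 0.32) was the only one of the 9 promoters with an unadjusted p below 0.05, beside 8.92% of all tested promoters (edgeR quasi-likelihood test, p = 0.0488, Benjamini-Hochberg adjusted p = 0.557). With the block, 2 of the 9, Cdkn2c (edgeR p = 0.0217) and Cdkn2b, had an unadjusted p below 0.05, beside 12.6% of all promoters. With the library sizes of the peak table neither did, at edgeR p = 0.212 for Cdkn2c and 0.201 for Cdkn2b. Of its 2 promoter peaks the stronger, over the upstream start, had 31.4, 31.5 and 30.1 CPM in aged against 29.4, 29.7 and 23.2 CPM in young libraries. The downstream start did not follow, at 3.27, 3.68 and 3.41 CPM in aged and 3.8, 3.71 and 3.82 CPM in young libraries, where all aged values lay below all young ones with a difference of -0.12 (SE 0.20). Scaled as RefSeq start sums, the aged and young values overlapped at both starts. A neighbouring peak 1380 bp into the gene, with 5.61, 5.39 and 5.85 CPM in aged and 6, 6.09 and 6.53 CPM in young libraries, had the same order (-0.13, SE 0.17; edgeR adjusted p = 0.944). The strongest distal peak, the one over the Faf1 start, overlapped between the ages at 74.6, 73.5 and 64.3 CPM in aged and 77.3, 67.7 and 56.2 CPM in young libraries, and the 10 peaks summed differed by 0.08 (SE 0.07).

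Cdkn2d (p19Ink4d, the remaining INK4 inhibitor) had a single peak, the most open start of the 10 genes. It measured 93.3, 84.4 and 85.1 CPM in aged libraries and 92.9, 82.6 and 87.9 CPM in young libraries, overlapping almost completely. The promoter difference was 0.01 (SE 0.06), and its 95% interval, -0.11 to 0.13, was the narrowest of the promoters. That width depended on the scaling. With the library sizes of the peak table the same counts gave an SE of 0.11 and an interval of -0.22 to 0.21.

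In the p53 pathway, Trp53, which encodes p53 itself, had 15.5, 14.7 and 12.4 CPM at its start peak in aged libraries and 15.9, 13.6 and 14.8 CPM in young libraries. The promoter difference was -0.04 (SE 0.12, interval -0.27 to 0.20). The peak 1123 bp upstream, shared with Wrap53, had 52.4, 50.6 and 42.4 CPM in aged and 50.8, 50.3 and 47.1 CPM in young libraries, so neither peak separated the ages. An intronic peak 5649 bp into the gene, its distal peak with the lowest p, differed by -0.13 (SE 0.26; edgeR adjusted p = 0.969).

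Mdm2 (the ubiquitin ligase that degrades p53 and is itself a p53 target) is known to use a pair of promoters, the inner of which responds to p53. The peak over the RefSeq start, chr10:117710418-117710972, had 17.1, 17.4 and 15.7 CPM in aged libraries and 20, 18.3 and 17.2 CPM in young libraries. The peak nearest the annotated TSS, further into the gene at chr10:117709951-117710251, had 8.63, 7.27 and 9.26 CPM in aged and 8.83, 7.28 and 5.57 CPM in young libraries. The peak over the RefSeq start differed by -0.16 (SE 0.12) and the one further in by 0.15 (SE 0.16), neither passing edgeR's quasi-likelihood test (Benjamini-Hochberg adjusted p = 0.851 and 0.927). The unequal direction of this pair was not tested. A peak 7723 bp upstream had the lowest p of all 41, with 2.28, 2.72 and 2.67 CPM in aged libraries above 2.01, 1.63 and 2.23 CPM in young libraries. Its difference was 0.43 (SE 0.25, interval -0.07 to 0.93; edgeR p = 0.09, adjusted p = 0.697). Over all 8 peaks Mdm2 differed by 0.04 (SE 0.09).

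Ccng1 (cyclin G1, a p53 target) had its start peak 1250 bp from the annotated TSS, so it entered no promoter sum. That peak, over the RefSeq start, had 69, 61.9 and 59.8 CPM in aged libraries and 66.7, 60.6 and 60.5 CPM in young libraries. The ages overlapped, with a difference of 0.03 (SE 0.06, interval -0.08 to 0.15) in the counts over that start.

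Summed per gene, none of the 10 genes passed the test for promoters, RefSeq starts or windows. By Benjamini-Hochberg adjusted p-values, edgeR's quasi-likelihood test called 0 of 9 promoters (background 1.74% of 13869), 0 of 10 RefSeq starts (background 1.35% of 15351) and 0 of 10 windows of 50000 bp (background 1.84% of 27199). Promoters with all aged libraries above all young ones numbered 2 of 9, beside 7.02% of all tested promoters, and such windows 1 of 10 (Cdkn2b), beside 7.11%. With the library sizes of the peak table, the Cdkn2b promoter and window overlapped between the ages and the Cdkn2c promoter did not. Among RefSeq starts, all aged sums lay above all young ones at Cdkn2b and below them at Mdm2. With the library sizes of the peak table these starts overlapped, whereas both Cdkn2c starts separated, in opposite directions. The share of all RefSeq starts with such an order is not given here. The median difference over the members was 0.009 for promoters, 0.025 for RefSeq starts and 0.029 for windows, against -0.002, 0.001 and -0.003 over all features of each kind. Across the windows the intervals ran between -0.45 and 0.42.

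**Figure D4:**
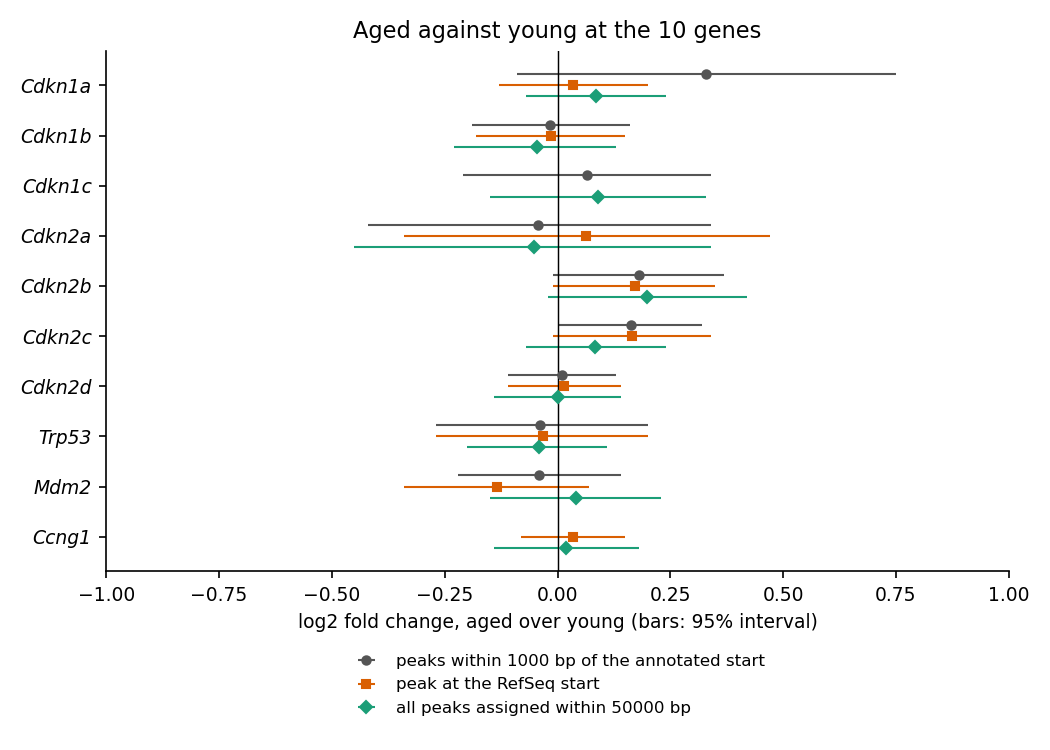
Log2 fold change (aged over young) with its 95% interval for each of the 10 genes, from peaks within 1000 bp of the annotated start (grey circles), the peak at the RefSeq start (orange squares; the stronger start where a gene has several) and all peaks within 50000 bp (green diamonds). All values lie within 0.20 of 0 except the Cdkn1a promoter at 0.33, which is 0.03 at the RefSeq start.

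Genes that act with these inhibitors were read in 4 lists, in none of which edgeR called a promoter, beside a background of 1.74% of all tested promoters. Of the p53 regulators, among them kinases and ligases that act on p53, 8 of 15 had a tested promoter. Of these 0 were called, with a median difference of -0.057. The lowest p-values there belonged to Cdkn2aip (-0.11, SE 0.07), Mdm4, a partner of Mdm2 (-0.13, SE 0.10), and the damage kinase Atr (-0.11, SE 0.10). The kinases and cyclins that the inhibitors bind gave 7 tested promoters of 12 and 0 calls (median -0.021), led by Ccnd1 (-0.15, SE 0.13), Cdk2 (-0.07, SE 0.09) and Ccne2 (0.04, SE 0.06). Among the Rb and E2F family 10 of 13 were tested and 0 called (median 0.009), with E2f2 at 0.27 (SE 0.14), E2f4 at -0.18 (SE 0.10) and Rb1 at -0.36 (SE 0.28). Known regulators of the Ink4/Arf locus and of the inhibitors, among them Polycomb and Ets factors, gave 10 tested of 21 and 0 called (median 0.006), with Id1 at 0.13 (SE 0.10), Jarid2 at -0.07 (SE 0.07) and Ets1 at 0.08 (SE 0.08). Over all tested promoters the median was -0.002.

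The p53 target genes were the list in which single promoters changed, and they did so in opposite directions. Of 25 tested promoters of 28 target genes, 1 was called higher and 1 lower in aged epithelium by edgeR, beside 0.772% and 0.973% of all tested promoters, and the median difference was 0.008. Eda2r, which encodes a TNF receptor family member and lies on chromosome X, rose. Its promoter had 34.2, 41.6 and 49.2 CPM of promoter counts in aged libraries and 21.8, 30.3 and 21.8 CPM in young libraries. All aged values lay above all young ones, the difference being 0.73 (SE 0.15; edgeR quasi-likelihood test, Benjamini-Hochberg adjusted p = 0.00643).

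At Eda2r the peak 92 bp upstream of the TSS, chrX:97377094-97377435, was itself called, with 8.01, 9.15 and 10.3 CPM in aged and 4.81, 6.34 and 4.94 CPM in young libraries (edgeR adjusted p = 0.00865). An intronic peak 553 bp downstream, part of the same promoter sum, differed by 0.61 (SE 0.21). A distal peak 20920 bp upstream differed by 0.76 (SE 0.29), and neither passed the test. All aged libraries exceeded all young ones at both, an order seen at 7.32% of all tested peaks. A further peak 42362 bp downstream did not pass the filter on low counts and overlapped between the ages. Peaks on chromosome X held 1.36%, 1.37% and 1.36% of counts in aged libraries and 1.36%, 1.4% and 1.38% in young libraries. The promoter call was lost without aged 4 (0.60, edgeR adjusted p = 0.067) and without young 1 (0.60, edgeR adjusted p = 0.0818).

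Rprm, which encodes the cell-cycle arrest protein reprimo, fell. Its promoter was a single 285-bp peak on few reads, chr2:54085423-54085707, with 16, 10 and 6 counts in aged libraries 1, 2 and 4 and 44, 45 and 9 counts in young libraries 1, 2 and 4. As a promoter it had 2.79, 1.25 and 1.05 CPM in aged and 5.48, 6.71 and 4.56 CPM in young libraries, the highest aged value lying below the lowest young one. The difference was -1.79 (SE 0.37; edgeR adjusted p = 0.00602). The call was lost without aged 2 (-1.58, edgeR adjusted p = 0.0642), aged 4 (-1.58, edgeR adjusted p = 0.0534) or young 2 (-1.63, edgeR adjusted p = 0.115). Of the other target genes Bbc3, the pro-apoptotic Puma, came closest at 0.19 (SE 0.08; edgeR adjusted p = 0.402), and Bax, Gadd45a and Sesn1 differed by -0.14 (SE 0.13), -0.03 (SE 0.06) and 0.02 (SE 0.07).

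**Figure D5:**
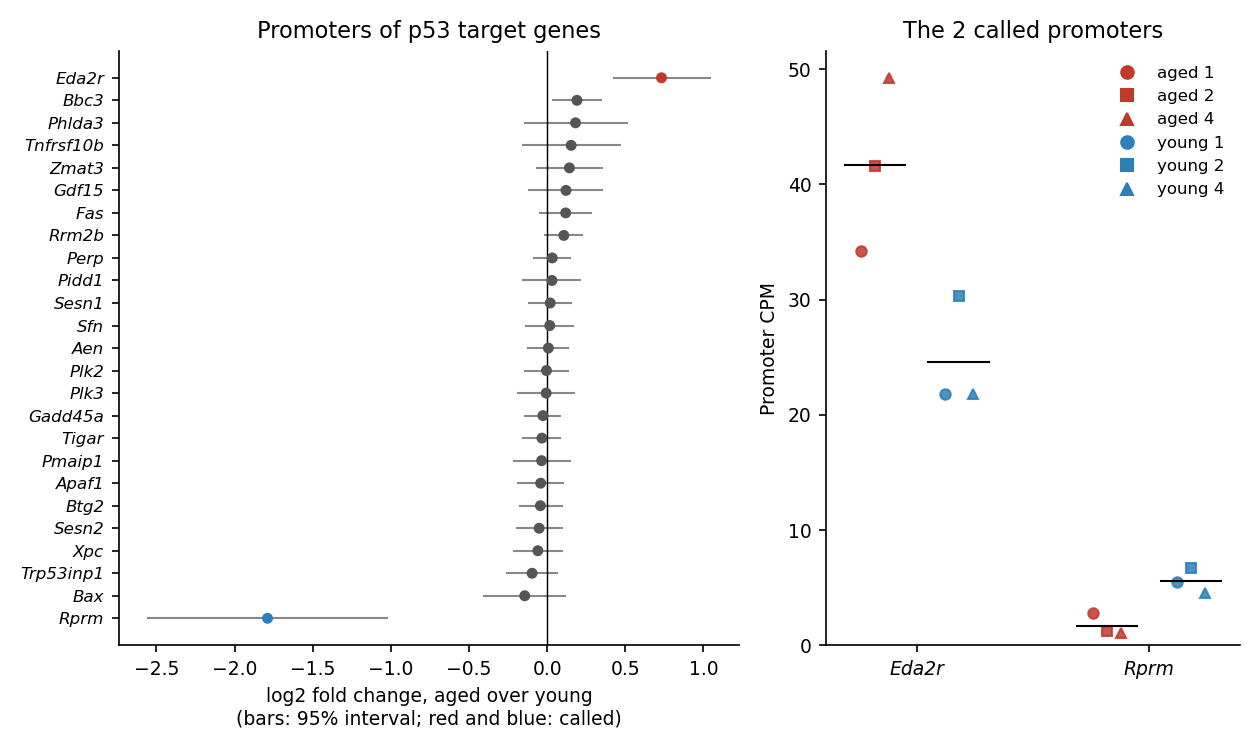
Left, log2 fold change (aged over young) with its 95% interval at the tested promoters of 25 p53 target genes, with the called Eda2r in red and Rprm in blue. Right, promoter CPM of both in aged libraries (red, left of each pair) and young libraries (blue), with lines at the means of 3 libraries: 41.7 in aged and 24.6 in young for Eda2r, 1.7 in aged and 5.58 in young for Rprm.

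The promoter of a list gene whose profile over the 6 libraries was most like that of Cdkn2c, the member with the lowest promoter p, was Gdf15. The root mean square difference of their centred log2 CPM was 0.0628, beside a median of 0.145 over the 60 list promoters compared. Zmat3 (0.0787) and Ccne2 (0.0925) came next. Gdf15, a secreted stress factor, had 38, 38.6 and 40.5 CPM in aged libraries and 36, 36.8 and 34 CPM in young libraries, a difference of 0.12 (SE 0.12) that edgeR did not call.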

How the data were processed

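A pair of tables was used: the authors deposited raw counts per consensus peak for 6 libraries, each the sum of 4 lanes, and an annotation that gives each peak's position, nearest gene and distance to TSS. Per the submitters' processing notes the tools included BWA 0.7.17-r1188, MACS2 2.2.7.1 and featureCounts 2.0.1, with genome build GRCm38. The sources used here do not say if reads or fragments were counted, if reads were shifted for the transposase, or which annotation release served. Per the labels' protocols libraries had 17 PCR cycles. Counts were joined by peak name, and coordinates are 1-based.

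All peaks with enough counts (filterByExpr) were fitted in edgeR 4.0.16 (R 4.3.3, quasi-likelihood, TMM, age only, all 6 libraries), as were counts summed per gene over peaks within 1000 bp or 50000 bp of the TSS. A further sum, over peaks that overlap 250 bases before to 50 bases after a RefSeq start, was added after seeing the data, as was a fit of the sums with the library sizes of the peak table. Calls are at a Benjamini-Hochberg adjusted p below 0.05 over all features of a kind, with other tools (limma 3.58.1, DESeq2 1.42.0) as alternatives. Each kind of sum has its own CPM, so CPM values compare within a kind. SE are those implied by the F statistic. For sums they depended on the scaling. With the library sizes of the peak table the SE rose at most promoters and RefSeq starts of the 10 genes. Examples are the Ccng1 start (0.06 to 0.12) and the promoters of Cdkn1b (0.08 to 0.13) and Mdm2 (0.09 to 0.13). It fell at the Arf start (0.20 to 0.18) and at the promoters of Cdkn1a (0.20 to 0.19) and Cdkn2a (0.19 to 0.17). Most promoter and start intervals given here would thus be wider with that scaling. The scripts were tested on simulated counts of libraries drawn independently of one another, as a check of the code only. Libraries of the same number deviated together from their age means (correlations of 0.236, 0.182 and 0.123 for numbers 1, 2 and 4, against -0.194 to 0.0287 for other pairs), so the numbers were taken to pair the libraries. Differences, SE and intervals given here are still from the fit on age only, which ignores this pairing. A fit that blocked on library number changed no call named here.

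The genes, gene lists and tests were chosen with earlier results of these data known. Named peaks are each gene's promoter peak nearest the TSS, its distal peak with the highest CPM per kb and its distal peak with the lowest p. Named list genes are the 3 promoters of lowest p in each list and every called one, and others named (Bax, Gadd45a, Sesn1 and further peaks of the 10 genes) were chosen after their values were seen.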

Additional observations from a re-analysis of the deposited data

How the results depend on the processing

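The count of 0 called held for the peaks, promoters and windows of the 10 genes under every alternative run: 3 other scalings, no filter, DESeq2, limma-voom, the replicate block, each library left out in turn, an adjusted p below 0.1, other promoter and window distances and, added after seeing the data, the RefSeq starts and the library sizes of the peak table for the promoter and window sums. The 60 member differences gave 894 values under alternatives, of which 60 repeat the main difference at the threshold of 0.1. Of these, 57 had the other sign as printed to 2 decimals, at 29 of the results, none beyond 0.22 in size. A value printed as 0.00 has no sign, so changes at such results, the Cdkn2d window among them, were not counted. The lowest adjusted p under any alternative was 0.247, for the Cdkn2b window under the block. The Cdkn1a and Mdm2 promoters depended on their definition. Cdkn1a stood at 0.33 by annotated TSS and 0.03 at the RefSeq start. Mdm2 stood at -0.04 by annotated TSS, 0.18 with a promoter window of 500 bp and -0.13 at the RefSeq start.

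Counts over all features moved more, and the cause was not tested. All peaks called higher numbered 1393, with 830 by DESeq2, 2578 with the replicate block and 742 (without young 2) to 1462 (without young 4) with a library left out; without aged 4 there were 886. All peaks called lower numbered 684, with 1420 under the block and 474 to 646 with a library left out. All promoters called numbered 242, with 463 under the block and 163 to 261 with a library left out. All 50 kb windows called numbered 500, with 1265 under the block and 292 (without young 2) to 545 with a library left out; without aged 4 there were 315. The calls of Eda2r and Rprm held under the block (edgeR adjusted p = 8.52e-05 and 0.000293) and were lost only on leaving out the libraries named with them. The 9 untested peaks and the Ink4a start did not pass the filter on low counts.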
